A study of Arabidopsis thaliana with 12 samples.

Results

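The jasmonate-hyperactive mutant jazD was compared with the wild type Col-0 across all genes of Arabidopsis thaliana. The comparison used 6 of the 12 libraries of the series, 3 of each genotype, and the other 6 libraries (cdk8-1 and jazDcdk8-1) entered the same model to estimate the spread between libraries. Col-0 carries intact JAZ genes, whereas 10 of the 13 are mutated in jazD (JAZ1 to JAZ7, JAZ9, JAZ10 and JAZ13). Both genotypes have an intact CDK8 gene, the kinase whose loss defines the other 2 genotypes. Whole rosettes without roots were taken from plants kept for 18 days in peat pellets and for 7 more in soil, at 20 °C with 16 h of light a day. All genotypes shared a tray, and each library is a separate pool of about 20 plants, so p-values reflect the spread between such pools. The allele of each JAZ mutation was not used here, jazD is 1 mutant line, and a pool hides differences between its plants.

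JAZ proteins are repressors that sit on transcription factors such as MYC2 and recruit the adaptor NINJA and the co-repressor TPL. The hormone jasmonoyl-isoleucine joins JAZ proteins to the receptor COI1, which marks them for destruction and frees the factors. In leaves the freed MYC factors switch on wound and anti-insect genes, while the factors ORA59 and ERF1, which also need ethylene, switch on defensins and other proteins against necrotrophic fungi. Jasmonate signalling also slows growth and switches on its own synthesis and breakdown.

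Of 33323 genes in the deposited table, 19059 had enough counts to be tested. Total counts per library ran from 17583467 to 20863055, and correlations of log2 CPM (counts scaled to a common library size) were 0.99 to 0.9917 between libraries of one genotype and 0.9498 to 0.9573 between the genotypes. In jazD, 4162 genes were higher and 3991 lower than in Col-0 at a Benjamini-Hochberg adjusted p below 0.05 from edgeR's quasi-likelihood test, which is 42.8% of the genes tested (21.8% higher and 20.9% lower). Most of these differences were small, since 5542 of the called genes (67.97%) changed by less than 1.5-fold. Larger rises outnumbered larger falls. At least 2-fold, 817 genes (4.29%) were higher and 435 (2.28%) lower, and at least 4-fold, 307 (1.61%) were higher and 84 (0.441%) lower. The balance of all calls depended on the scale, as 51.05% of them were higher here, 44.52% with scaling to total counts and 37.94% with limma on log2(TPM + 1), where TPM is the deposited length-corrected level. Those alternatives shifted the median of all genes to -0.03 and -0.06 on the log2 scale, against 0.00 here. In 51.5% of the tested genes the 3 libraries of one genotype all lay above the 3 of the other. CPM below are scaled by TMM and given for libraries 1, 2 and 3 in turn or as mean ± SD over 3 libraries, and log2 fold changes of jazD over Col-0 carry approximate standard errors.

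**Figure D1:**
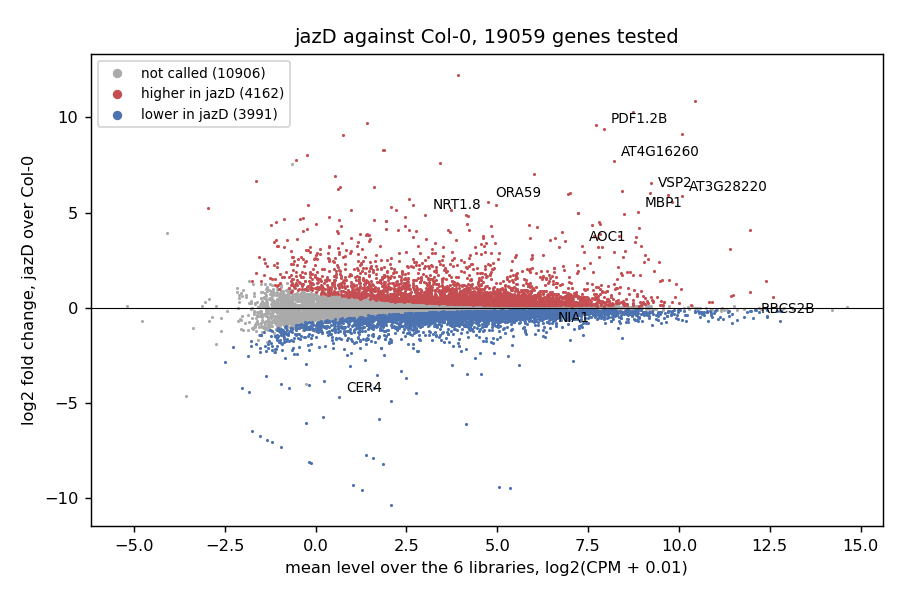
Log2 fold change of jazD over Col-0 (y axis) against mean level over the 6 libraries (x axis, log2 of CPM + 0.01), 1 point per tested gene, coloured by call at an adjusted p below 0.05. There are 4162 red and 3991 blue points, and more red than blue points lie at least 2-fold from 0 (817 and 435).

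The JAZ genes themselves set the frame. JAZ1, JAZ2 and JAZ6 were read at 11.46 ± 0.711, 24.29 ± 2.96 and 33.3 ± 3.83 CPM in Col-0 and at 2.38 ± 0.149, 2.94 ± 0.474 and 2.99 ± 0.286 CPM in jazD. JAZ4 fell by 1.47 ± 0.49 on the log2 scale (edgeR adjusted p = 0.0188). That call of JAZ4 was lost without Col-0 replicate 2 (log2 fold change -1.32, edgeR adjusted p = 0.0701) and without jazD replicate 3 (-1.17, edgeR adjusted p = 0.0807). Among the 10 mutated genes 9 were tested, with 3 higher, 5 lower and 1 not called. JAZ5 and JAZ7 had no call, 1 of them because it had too few counts to be tested. JAZ3 (-0.2) and JAZ9 (0.17) had small log2 fold changes. Dropping Col-0 replicate 1 ended the JAZ3 call (edgeR adjusted p = 0.0516), as did dropping jazD replicate 2 (edgeR adjusted p = 0.104). JAZ9 had no call with Col-0 replicate 3 dropped (edgeR adjusted p = 0.0714), with scaling to total counts or with limma. The mutated genes JAZ10 and JAZ13 were higher in jazD, at 9.35 ± 2.15 against 2.08 ± 0.418 CPM and at 1.46 ± 0.123 against 0.0853 ± 0.061 CPM. Counts over a whole gene can come from parts on either side of a mutation, so these levels do not measure a working protein. Of the 3 intact genes, JAZ8 was at 0.259, 0 and 0.2 CPM in Col-0 and at 2.67, 3.59 and 3.02 CPM in jazD, a log2 fold change of 4.29 ± 0.4. JAZ12 rose by 0.33 ± 0.06, and JAZ11 was at 9.95 ± 0.662 and 10.23 ± 0.739 CPM without a call.

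Among the factors that JAZ proteins hold, MYC2 rose from 39.75 ± 3.11 to 130.5 ± 0.781 CPM and MYC3 from 39.83 ± 0.971 to 57.13 ± 2.35 CPM, whereas MYC4 fell by 0.26 ± 0.07 on the log2 scale. MYC5, named NIG1 in the deposited table, was called lower at very low levels, from 0.208, 0.301 and 0.45 CPM to 0.109, 0 and 0.118 CPM. The call of MYC5 was lost without Col-0 replicate 3 (edgeR adjusted p = 0.0846) and without jazD replicate 2 (edgeR adjusted p = 0.0968). The JAM repressors, which compete with MYC factors for the same DNA sites, all rose: JAM1 by 1.0 ± 0.07, JAM2 by 0.51 ± 0.09 and JAM3 by 0.27 ± 0.06. NINJA rose by 0.6 ± 0.05. The receptor gene COI1 (31.26 ± 1.1 and 29.74 ± 1.85 CPM), TPL and the Mediator subunit gene MED25 were not called. In all, 6 of 11 signalling genes were higher and 2 lower.

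Among the gene lists, the branch controlled by ORA59 and ERF1 had the highest median rise. Its highest log2 fold change was 10.86, while the highest of any tested gene, 12.22, lay outside the list. All 10 tested members of its list of 12 were higher, each by at least 2-fold, with a median log2 fold change of 7.57 beside 0.00 for all tested genes. The regulator ORA59 itself was at 1.51, 1.05 and 0.8 CPM in Col-0 and at 47.87, 56.75 and 53.54 CPM in jazD, so that the 2 groups did not overlap (5.56 ± 0.13). ERF1 had too few counts to be tested. The defensins PDF1.2A, PDF1.2B, PDF1.2C and PDF1.3, small antifungal peptides, rose by 9.15 ± 0.38, 9.41 ± 0.27, 10.28 ± 0.32 and 10.86 ± 0.49 on the log2 scale. These 4 genes are near-identical copies, so reads may be split between them, and their sum is the safer value. It was 9.86, 7.28 and 3.1 CPM in Col-0 and 6093.4, 6630.2 and 6218.3 CPM in jazD, a ratio of 936.2 between the means. PDF1.4 was low and its groups overlapped, at 0.778, 0.502 and 0.35 CPM in Col-0 and at 0.545, 1.92 and 1.36 CPM in jazD (1.24 ± 0.41, edgeR adjusted p = 0.0175). Its call ended without Col-0 replicate 2 or 3 and without jazD replicate 2, with edgeR adjusted p-values of 0.0536, 0.0811 and 0.171, and with limma on log2(TPM + 0.1). DESeq2 gave an adjusted p for 7 of the 10 genes and called all 7.

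ACT (AACT1 in the deposited table) encodes the agmatine coumaroyltransferase that makes antifungal hydroxycinnamic acid amides, and it was at 0.208, 0.953 and 0.45 CPM in Col-0 against 405.7, 451.0 and 409.8 CPM in jazD. DTX18, which exports these amides, rose from 4.67, 4.12 and 2.7 to 235.6, 256.2 and 240.0 CPM. Log2 fold changes were 9.59 ± 0.29 for ACT (10.29 without Col-0 replicate 2) and 6.0 ± 0.13 for DTX18. PR4, a chitin-binding protein, rose from 36.69 ± 7.06 to 1746.0 ± 81.8 CPM, and the basic chitinase PR3 rose from 3.98 ± 0.17 to 54.4 ± 8.99 CPM.

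ERF factors bind the GCC box (GCCGCC) and MYC factors the G-box (CACGTG), and the stretch of 250 bases before the start of the gene in RefSeq TAIR10.1 was searched for both on both strands. Of the 10 tested genes of this branch, 4 (40%) held a GCC box, beside 1.96% of 18986 tested genes with such a stretch. The 4 are shown because they are the members with the motif, in order of fold change, with the motifs found in capitals. They lie at chr5:24608355-24608604 (+ strand), chr2:11088873-11089122 (+ strand), chr5:17907639-17907888 (- strand) and chr1:1882657-1882906 (+ strand), and each is written 5′ to 3′ on the strand of its gene.
ACT: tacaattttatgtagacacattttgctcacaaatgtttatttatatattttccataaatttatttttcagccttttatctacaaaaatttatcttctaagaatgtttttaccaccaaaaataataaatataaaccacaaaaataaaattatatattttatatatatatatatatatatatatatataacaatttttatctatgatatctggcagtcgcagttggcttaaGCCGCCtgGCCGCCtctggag
PDF1.2B: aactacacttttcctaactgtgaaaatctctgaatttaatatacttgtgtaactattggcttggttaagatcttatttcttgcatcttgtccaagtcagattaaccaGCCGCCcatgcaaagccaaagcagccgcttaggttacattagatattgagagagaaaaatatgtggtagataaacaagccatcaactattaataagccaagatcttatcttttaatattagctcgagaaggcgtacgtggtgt
PDF1.2A: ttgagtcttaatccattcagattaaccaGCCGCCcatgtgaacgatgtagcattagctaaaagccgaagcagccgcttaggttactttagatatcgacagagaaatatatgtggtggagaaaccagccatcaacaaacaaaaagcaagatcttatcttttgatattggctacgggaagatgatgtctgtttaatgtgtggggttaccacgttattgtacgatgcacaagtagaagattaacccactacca
ORA59: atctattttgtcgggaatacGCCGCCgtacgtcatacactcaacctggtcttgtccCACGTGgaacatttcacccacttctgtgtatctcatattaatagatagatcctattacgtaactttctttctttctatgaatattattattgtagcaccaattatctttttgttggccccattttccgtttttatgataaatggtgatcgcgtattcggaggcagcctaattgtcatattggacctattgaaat

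ACT held 2 GCC boxes, which begin 21 and 13 bases before the gene start. PDF1.2B and PDF1.2A held 1 each, at 143 and 222 bases before their gene starts. ORA59 held 1 GCC box, at 230 bases, and also a G-box. Across all genes at least 4-fold higher in jazD, 12 of 306 (3.92%) held a GCC box and 34 (11.1%) a G-box, beside 1.96% and 7.33% of all genes tested. Among genes at least 4-fold lower, 2 of 83 (2.41%) held a GCC box and 4 (4.82%) a G-box. The W box TTGACC, bound by WRKY factors, was in 45 of 306 higher genes (14.7%), 6 of 83 lower genes (7.23%) and 11.9% of all. No test was made on these shares, and a match in the sequence is not a bound site.

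**Figure D2:**
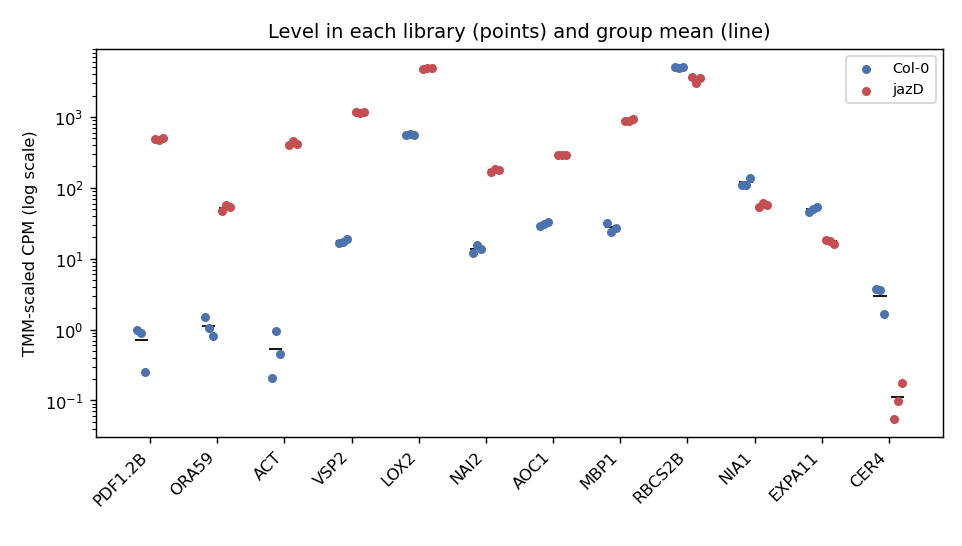
TMM-scaled CPM (y axis, log scale) of 12 genes in each library of Col-0 (blue) and jazD (red), with lines at the group means. The groups do not overlap for any of the 12, and jazD is above Col-0 for the first 8 genes and below it for RBCS2B, NIA1, EXPA11 and CER4.

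Genes of the MYC branch rose as a group, with 14 of 15 members higher, all 14 by at least 2-fold, and a median log2 fold change of 3.45. The vegetative storage proteins VSP1 and VSP2, acid phosphatases that harm insects, summed to 30.72, 29.3 and 31.19 CPM in Col-0 and to 2383.4, 2325.5 and 2357.4 CPM in jazD, which is 77.47 times the mean of Col-0. NATA1, an acetyltransferase that makes the defense compound acetylornithine, rose from 3.8 ± 0.963 to 251.2 ± 3.44 CPM. The chlorophyllase gene CLH1 and the cystine lyase gene CORI3 rose by 3.01 ± 0.05 and 3.23 ± 0.07. TAT3, a tyrosine aminotransferase, was the member that was not called, at 39.67 ± 10.4 and 33.78 ± 11.1 CPM.

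Proteins of ER bodies, stores of beta-glucosidase in the endoplasmic reticulum, made up much of this group. The beta-glucosidase gene BGLU18 was at 466.5, 413.2 and 433.5 CPM in Col-0 and at 7415.4, 7549.9 and 7577.8 CPM in jazD (4.1 ± 0.06). Its partner TSA1 rose by 3.74 ± 0.06, NAI2, which is needed to form ER bodies, by 3.68 ± 0.07, and their regulator NAI1 by 2.56 ± 0.15. PYK10, the ER body enzyme best known from roots, rose from 42.86 ± 5.48 to 394.7 ± 38.9 CPM in these rosettes. The NAC factors ANAC019 and ANAC055 rose by 1.36 ± 0.22 and 4.57 ± 0.24.

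Of 13 genes of jasmonate synthesis 12 were higher and 1 lower, with a median of 1.41. Among the plastid steps, the lipoxygenase LOX2 rose from 564.7 ± 8.18 to 4825.1 ± 119.4 CPM, the allene oxide cyclases AOC1 and AOC2 by 3.24 ± 0.06 and 2.78 ± 0.05, and the allene oxide synthase AOS by 1.95 ± 0.05. The later peroxisomal genes OPR3, OPCL1 and ACX1 rose by 1.28 ± 0.05, 1.41 ± 0.05 and 0.37 ± 0.05. JAR1, which joins jasmonate to isoleucine to make the active hormone, was the lower one at -0.17 ± 0.06, a call lost without Col-0 replicate 3 (-0.11, edgeR adjusted p = 0.193) and without jazD replicate 2 (edgeR adjusted p = 0.0862) or 3 (edgeR adjusted p = 0.0518). Jasmonate breakdown rose too, with 8 of 8 tested genes of 10 higher and a median of 2.36. Among them were the hydroxylases CYP94B1 (2.66 ± 0.39) and CYP94C1 (2.07 ± 0.17), the amidohydrolases ILL6 (2.05 ± 0.08) and IAR3 (1.14 ± 0.06), and the oxygenase JOX3 (JRG21 in the deposited table), which rose from 4.45 ± 0.432 to 47.52 ± 1.6 CPM.

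In these groups a G-box stood in 2 of 15 MYC-branch stretches, 2 of 13 synthesis stretches and 0 of 8 breakdown stretches, where 7.33% of all tested genes hold one. Of the 34 photosynthesis genes, which were lower or not called, 6 held one, a larger share than in these 3 lists. NAI2 (chr3:5402654-5402903 (- strand)) and AOS (chr5:17099596-17099845 (- strand)) are shown as the members of the first 2 lists with a G-box and the largest fold change.
NAI2: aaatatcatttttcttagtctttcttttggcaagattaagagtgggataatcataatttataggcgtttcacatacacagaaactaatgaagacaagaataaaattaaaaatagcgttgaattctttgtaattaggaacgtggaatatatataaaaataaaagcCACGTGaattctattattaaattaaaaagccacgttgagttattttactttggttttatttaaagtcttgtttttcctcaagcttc
AOS: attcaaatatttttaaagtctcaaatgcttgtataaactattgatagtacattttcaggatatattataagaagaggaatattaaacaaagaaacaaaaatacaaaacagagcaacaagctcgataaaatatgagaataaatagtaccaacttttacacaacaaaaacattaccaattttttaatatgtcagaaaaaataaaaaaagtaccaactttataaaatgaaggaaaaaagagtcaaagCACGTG
The G-box of NAI2 begins 86 bases and that of AOS 6 bases before the gene start.

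**Figure D3:**
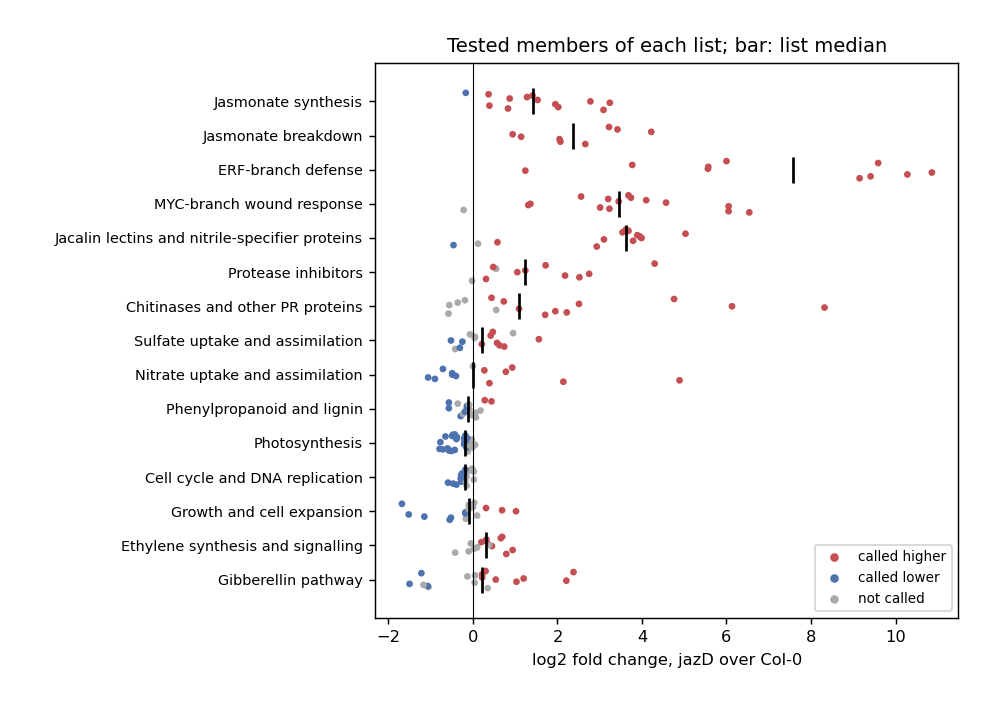
Log2 fold change of jazD over Col-0 (x axis) for each tested member of 15 gene lists (rows), red when called higher, blue when called lower and grey when not called, with a bar at the list median. Defense and jasmonate lists lie to the right of 0, with medians up to 7.57, and photosynthesis and cell cycle lists lie just to the left of it, with medians of -0.19.

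Of 13 tested jacalin lectins and nitrile-specifier proteins, which bind sugars and steer glucosinolate breakdown, 11 were higher and 1 lower, with a median of 3.62. The myrosinase-binding protein gene MBP1 was at 32.28, 24.09 and 26.79 CPM in Col-0 and at 879.3, 890.3 and 942.3 CPM in jazD (5.03 ± 0.08). PBP1, which binds PYK10, rose by 3.79 ± 0.06, JAL34 by 3.95 ± 0.07, JAL23 by 3.89 ± 0.09 and the nitrile specifier NSP1 by 2.93 ± 0.05. NSP4 fell by 0.46 ± 0.11 and NSP5 was not called. In the whole family of jacalin-domain lectins by annotation, 9 of 17 tested genes were higher and 4 lower, each of the 9 and 2 of the 4 by at least 2-fold. The lower calls numbered 1 without Col-0 replicate 1 or jazD replicate 1 and 2 without jazD replicate 2 or with DESeq2. A legume lectin gene, AT3G15356, rose from 26.92 ± 6.8 to 1624.8 ± 104.0 CPM. The TRAF-like gene AT3G28220 rose from 36.83 ± 2.47 to 2122.6 ± 40.4 CPM, and both were among the 12 largest rises in TPM. GDSL lipases went both ways, with 11 of 43 higher (25.58%) and 19 lower (44.19%), beside 21.8% and 20.9% of all tested genes. Among them AT1G54010 stood out at 20.1 ± 1.69 against 430.6 ± 3.17 CPM.

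Chitinases and other pathogenesis-related (PR) proteins were higher in 10 of 15 tested cases and lower in 0, with a median of 1.09. Without jazD replicate 2 the median was 0.57, with 9 higher and 2 lower. AT2G43590, annotated as a chitinase, rose from 7.99, 11.19 and 9.9 to 661.6, 751.7 and 625.5 CPM. Its neighbour AT2G43580 rose from 0.0167 ± 0.029 to 7.38 ± 1.18 CPM, and the thionin THI2.1, an antimicrobial peptide, from 0.388 ± 0.0216 to 10.69 ± 0.947 CPM. AT4G16260, annotated as a glycosyl hydrolase, went from 3.17, 3.61 and 1.65 to 574.8, 632.7 and 560.4 CPM (7.71 ± 0.18).

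Markers of the salicylic acid pathway were less even. PR1 was at 32.53, 16.56 and 12.39 CPM in Col-0 and at 47.54, 105.7 and 45.48 CPM in jazD, so the groups did not overlap, but libraries of one genotype differed by more than 2-fold. The log2 fold change of PR1 was 1.71 ± 0.34 with edgeR (adjusted p = 0.00038), 1.69 with DESeq2 (adjusted p = 0.0521) and 1.19 without jazD replicate 2 (edgeR adjusted p = 0.00497). PR5 rose by 1.95 ± 0.19, while the glucanase gene BGL2, also known as PR2, was at 75.55, 38.89 and 31.94 against 20.09, 49.18 and 27.48 CPM and was not called, but was lower without jazD replicate 2 (-1.03, edgeR adjusted p = 0.0173). Protease inhibitors, which block insect gut enzymes, were higher in 9 of 11 tested cases and lower in 0 (median 1.24), with AT1G73325 rising by 4.3 ± 0.19, AT2G43530 by 2.75 ± 0.07 and the trypsin inhibitor TI1 by 2.52 ± 0.16. KTI1 was not called at 1.78 ± 1.34 and 1.7 ± 1.13 CPM.

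These rises changed the make-up of the RNA pool. The 307 genes that were at least 4-fold higher, chosen from this comparison, held 0.362, 0.367 and 0.34% of all TPM in Col-0 and 6.95, 7.69 and 7.13% in jazD. The 4 PDF1 copies alone went from a mean of 0.0043 ± 0.0022% to 3.42 ± 0.176% of TPM. As their transcripts are short, their share of counts was smaller, at 0.608% in jazD. The MYC-branch list went from 0.0594 ± 0.00128% to 0.938 ± 0.0221% and jasmonate synthesis from 0.0799 ± 0.00261% to 0.427 ± 0.0117% of TPM. The groups did not overlap for any of these 4 sets, and the exact two-sided permutation test over 3 and 3 libraries gave p = 0.1 for the MYC-branch and synthesis lists, the smallest it can give. Both lists were written with earlier results of these data known, so the separation and this p are a description only. Shares of a pool cannot tell more RNA of one gene from less RNA of the others.

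**Figure D4:**
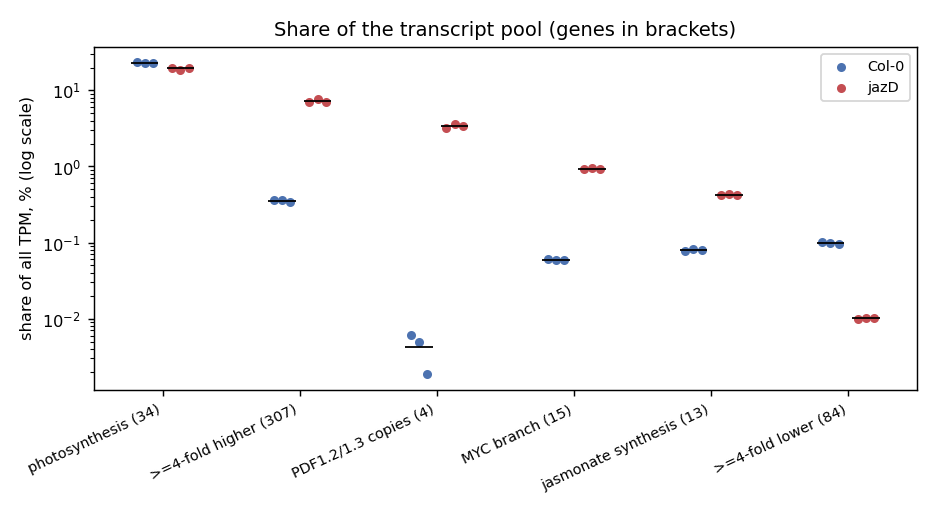
Share of all TPM (y axis, %, log scale) held by 6 sets of genes in each library of Col-0 (blue) and jazD (red), with lines at the group means. The 4 PDF1 copies rise from about 0.0043% to 3.42%, the 307 genes at least 4-fold higher from 0.356% to 7.26%, and photosynthesis genes fall from 23.2% to 19.55%.

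Transcription factor families held more higher than lower calls, where all tested genes divide into 21.8% higher and 20.9% lower. Of 54 tested AP2/ERF factors 25 were higher and 6 lower, with ERF2 from 4.15 ± 0.98 to 38.08 ± 3.17 CPM and RAP2.9 from 1.67 ± 0.197 to 17.92 ± 0.916 CPM. The cold factors DREB1A and CBF2 fell by 1.06 ± 0.16 and 0.97 ± 0.2. Of 48 WRKY factors 20 were higher and 5 lower, led by WRKY26 (2.87 ± 0.17), WRKY45 (2.87 ± 0.27) and WRKY65 (2.32 ± 0.24). Of 64 NAC factors 20 were higher and 4 lower, the latter 1 or 2 without Col-0 replicate 3 or any 1 jazD library. With limma on log2(TPM + 1) 13 NAC factors were higher, and 10 AP2/ERF factors were lower. Among the ZAT and AZF zinc fingers 6 of 9 were higher and 0 lower, with ZAT6 from 2.19 to 16.19 CPM.

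Of 62 MYB factors 15 were higher (24.19%) and 10 lower (16.13%), near the 21.8% and 20.9% of all tested genes. MYB113, an activator of anthocyanin genes, was at 0, 0.1 and 0 CPM in Col-0 and at 3.16, 3.24 and 2.72 CPM in jazD, and MYB47 rose from 1.66 ± 0.386 to 34.56 ± 0.541 CPM. MYB29, an activator of aliphatic glucosinolate genes, fell by 0.53 ± 0.07. Of the ethylene list, 8 of 14 tested genes were higher and 0 lower, all by less than 2-fold (median 0.31). They included the ethylene-forming enzyme EFE (0.94 ± 0.05), the synthase gene ACS6 (0.79 ± 0.12), the factors EIN3 (0.2 ± 0.05, a call that limma on log2(TPM + 1) did not make) and EIL1 (0.31 ± 0.05), the F-box genes EBF1 and EBF2 that remove them (0.32 ± 0.06 and 0.66 ± 0.07) and the negative regulator CTR1 (0.69 ± 0.06).

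Enzyme families of specialised metabolism and detoxification moved in both directions, with rises larger than falls. Of 135 cytochrome P450 genes 47 were higher (34.81%) and 34 lower (25.19%), beside 21.8% and 20.9% of all tested genes. At least 2-fold, 26 were higher and 6 lower, where 4.29% and 2.28% of all tested genes were. CYP72A14 rose from 0.285 ± 0.225 to 12.53 ± 0.458 CPM and CYP81F4, which modifies indole glucosinolates, from 8.84 ± 1.29 to 111.9 ± 3.73 CPM. CYP71A25 and CYP71B2 fell by 1.86 ± 0.15 and 1.73 ± 0.08. Of 65 oxygenases that use 2-oxoglutarate 26 were higher and 8 lower (5 lower without jazD replicate 2), with DIN11 at 0.726, 1.46 and 0.7 CPM in Col-0 and at 114.8, 150.8 and 117.1 CPM in jazD.

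UDP-glycosyltransferases were higher in 18 of 44 cases (40.91%) and lower in 11 (25%), beside 21.8% and 20.9% of all tested genes. By at least 2-fold 11 rose and 0 fell, beside 4.29% and 2.28% of all tested genes, led by UGT71C3 from 1.15 ± 0.13 to 33.9 ± 2.19 CPM. For MATE exporters 17 of 37 were higher and 5 lower, with 11 and 0 at least 2-fold, and 3 were lower without Col-0 replicate 2 or 3 or jazD replicate 3. Glutathione S-transferases were higher in 18 of 42 cases and lower in 6 (11 with limma on log2(TPM + 1)). GSTF6 rose from 38.4 to 295.5 CPM, and GSTF7 was at 155.1, 256.4 and 147.9 CPM in jazD against 20.75 ± 2.7 in Col-0. The peroxidase Prx37 showed the same high second library, at 25.21, 52.52 and 29.2 CPM against 1.25 ± 0.512 in Col-0, and its log2 fold change was 4.84 ± 0.28 with all libraries and 4.44 without jazD replicate 2. Methyl esterases and SABATH methyltransferases were higher in 10 of 19 cases and lower in 3, with PXMT1 at 4.1 ± 0.25.

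Of 16 lignin and phenylpropanoid genes 2 were higher (12.5%) and 6 lower (37.5%), with a median of -0.11. All tested genes divide into 21.8% higher and 20.9% lower. HCT and CAD4 both fell by 0.57, with standard errors of 0.04 and 0.05, while PAL1 and C4H were not called. Of 6 tested terpene genes 2 were higher and 2 lower. The monoterpene synthases TPS03 and TPS10 rose from 4.87 ± 1.17 to 33.02 ± 4.08 CPM and from 0.22 ± 0.0275 to 11.77 ± 0.659 CPM. CYP82G1, which makes the volatile TMTT, fell by 1.72 ± 0.3, and DXS, the entry to the plastid isoprenoid pathway, fell by 0.42 ± 0.04.

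**Figure D5:**
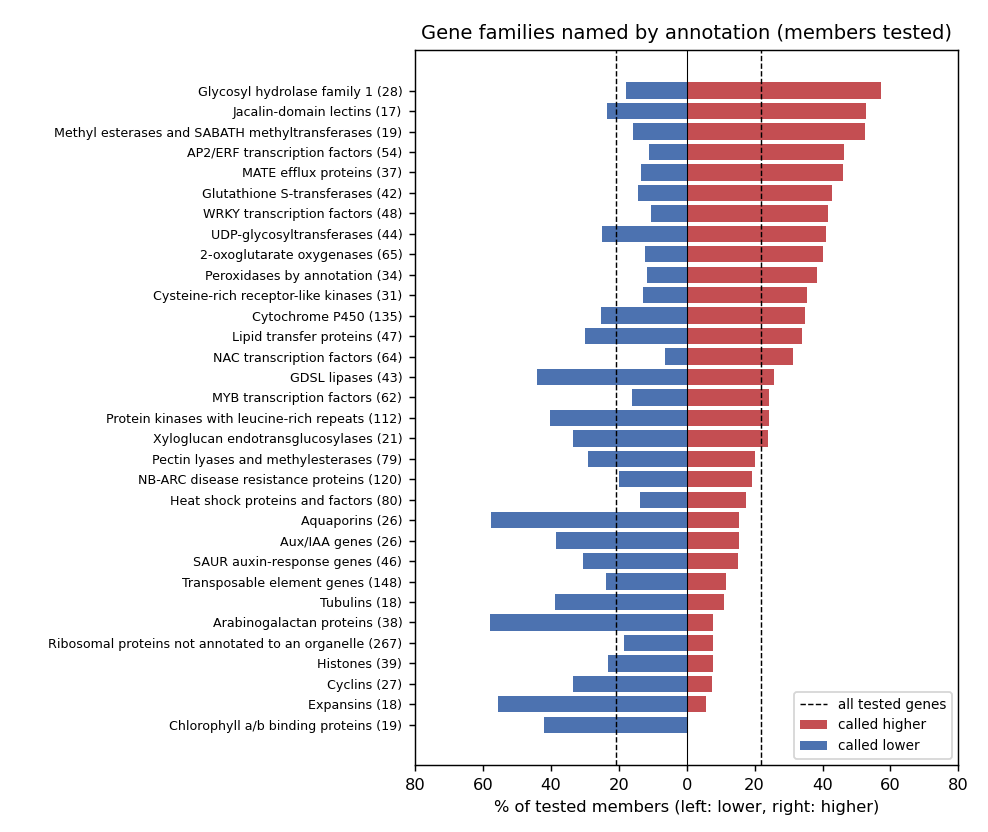
Percent of tested members called higher (red, right) and lower (blue, left) in jazD for families with at least 15 tested members, whose number stands in brackets, with dashed lines at the shares of all tested genes (21.8% higher and 20.9% lower). Glycosyl hydrolase family 1, AP2/ERF factors and MATE exporters lie beyond the right line, and arabinogalactan proteins, aquaporins and expansins beyond the left one.

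Photosynthesis genes were lower or not called. Of 34 genes 0 were higher and 24 lower, with a median of -0.19 and no change of 2-fold. The lower calls were 18 without Col-0 replicate 1, Col-0 replicate 3 or jazD replicate 2, and 31 with limma on log2(TPM + 1). In bulk rosettes fewer cells of a type and less RNA per cell cannot be told apart. The carbonic anhydrase gene CA1 went from 3723.6, 3516.6 and 3573.0 to 2110.8, 1959.7 and 2181.1 CPM, and the Rubisco activase gene RCA from 8782.3, 8796.2 and 8461.4 to 5489.1, 5068.1 and 5403.0 CPM. Log2 fold changes were -0.79 ± 0.05 and -0.71 ± 0.05. The small subunit genes RBCS1B, RBCS2B and RBCS3B, near-identical neighbours, summed to 17781.3 ± 439.7 and 12623.9 ± 833.3 CPM, whereas RBCS1A was at 19901.0 ± 1713.4 and 18309.4 ± 1522.2 CPM and was not called. The aldolases FBA1 and FBA2 fell by 0.65 ± 0.06 and 0.49 ± 0.05 and SBPASE by 0.43 ± 0.04.

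Among antenna genes values were mixed. LHCB1.3, the most abundant of them, was at 24706 ± 454.1 and 25584.9 ± 950.1 CPM, and LHCB1.1, CAB3, LHCA2, LHCA4, LHCB3, LHCB4.1 and LHCB6 were not called here, while limma on log2(TPM + 1) called LHCB1.1, CAB3, LHCA4, LHCB3, LHCB4.1, LHCB6 and RBCS1A lower. LHCB2.3 fell by 0.57 ± 0.06 and LHCB4.3 by 0.77 ± 0.08. The 34 genes together held 23.36, 22.95 and 23.28% of TPM in Col-0 and 20.01, 18.84 and 19.79% in jazD. The 12 largest falls in TPM of called genes were RBCS2B, RBCS1B, RBCS3B, RCA, CA1, FBA2, LHCB2.3, LHCB5, LHCA1, PSAD-1, PSBO1 and PSAG, all of photosynthesis. A ranking by difference in TPM favours abundant genes, and a fall in TPM cannot be told apart from rises of other genes. Among these 12 genes, leaving out 1 library ended the calls of LHCA1 (log2 fold change -0.11 to -0.15 without it), LHCB5 (-0.15) and PSAG (-0.11 to -0.15). Outside them, leaving out 1 library also ended the calls of LHCA3, LHCB2.2, PSBP-1, PSAF and PSAH2.

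In nitrate uptake and assimilation 6 of 13 genes were higher and 6 lower (46.15% each, beside 21.8% and 20.9% of all tested genes). The chloroplast and reductive steps fell, namely the nitrate reductase NIA1 from 119.4 ± 17.2 to 57.2 ± 4.01 CPM, the nitrite reductase NIR1 by 0.49 ± 0.04, the glutamine synthetase GLN2 by 0.49 ± 0.04 and the glutamate synthase GLU1 by 0.71 ± 0.05. The transporter genes NRT1.8 and NRT2.1 rose by 4.89 ± 0.31 and 2.14 ± 0.32, and the cytosolic synthetase GLN1;1 and the asparagine synthetase ASN1 by 0.78 ± 0.06 and 0.93 ± 0.09. NRT1.8, which removes nitrate from the xylem, was at 0.363, 0.652 and 0.55 CPM in Col-0 and at 12.36, 22.7 and 11.67 CPM in jazD. The ammonium transporter AMT1;2 fell from 10.12 ± 0.989 to 2.69 ± 0.143 CPM.

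Sulfur and redox genes held more higher than lower calls, where all tested genes divide into 21.8% higher and 20.9% lower. In sulfate uptake and assimilation 7 of 15 tested genes were higher (46.67%) and 3 lower (20%). The 3 reductase genes split, with APR3 rising from 23.52 ± 1.8 to 69.36 ± 4.95 CPM while APR1 and APR2 fell by 0.25 ± 0.06 and 0.52 ± 0.05. The glutathione genes GSH1 and GSH2 rose by 0.47 ± 0.04 and 0.91 ± 0.04. In the ascorbate and glutathione list 6 of 10 were higher (60%) and 3 lower (30%), but 5 and 4 with limma on log2(TPM + 1). The dehydroascorbate reductase DHAR1 rose from 147.8 ± 7.41 to 527.5 ± 15.2 CPM, and the ascorbate synthesis gene VTC2 fell by 0.53 ± 0.04. The catalase 3 gene AT1G20620, already abundant, rose from 2984.7 ± 58.3 to 7855.1 ± 149.9 CPM. Starch genes were even, with 6 of 15 higher and 6 lower (40% each, beside 21.8% and 20.9% of all tested genes). They spanned from the amylase BAM5 (2.17 ± 0.11) to the starch synthase GBSS1 (-1.15 ± 0.09). Tocopherol and tyrosine genes were higher in 3 of 9 cases and lower in 5.

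Of 18 cell cycle and replication genes 0 were higher and 11 lower (61.11%), where all tested genes divide into 21.8% higher and 20.9% lower. The falls were small (median -0.19), such as CYCB1;1 by 0.59 ± 0.16 and CDKB2;1 by 0.39 ± 0.08. The 11 lower calls were 6 without Col-0 replicate 2 and 7 without jazD replicate 1. The wall-loosening expansins were higher in 1 of 18 tested cases and lower in 10 (median -0.42). EXPA11 was at 46.08, 50.48 and 54.18 CPM in Col-0 and at 18.41, 17.79 and 16.35 CPM in jazD, and EXPA8 and EXPB1 fell by 1.15 ± 0.06 and 1.8 ± 0.11. Arabinogalactan proteins were lower in 22 of 38 cases and higher in 3, and aquaporins lower in 15 of 26 and higher in 4, with the tonoplast channel DELTA-TIP from 928.6 to 530.3 CPM. SAUR genes, early auxin targets, were lower in 14 of 46 cases (30.43%) and higher in 7 (15.22%). Aux/IAA genes were lower in 10 of 26 (38.46%) and higher in 4 (15.38%). The lower Aux/IAA calls were 5 without Col-0 replicate 2, jazD replicate 1 or jazD replicate 2 and with DESeq2, and 6 without Col-0 replicate 1, and the higher ones 2 without Col-0 replicate 3 or jazD replicate 3. Of 17 genes in the list of growth and cell expansion 3 were higher and 7 lower, and PRE1, a growth-promoting HLH protein, fell from 16.59 ± 1.78 to 5.19 ± 0.994 CPM.

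In the gibberellin list 8 of 17 tested genes were higher and 3 lower (5 higher with DESeq2). The DELLA repressor gene RGL3 rose from 2.08, 2.51 and 1.8 to 11.54, 11.64 and 10.01 CPM, whereas the DELLA genes GAI (-0.13, called lower with scaling to total counts) and RGA1 were not called and RGL2 fell by 1.22 ± 0.18. The receptor genes GID1A and GID1B rose by 0.54 ± 0.07 and 1.2 ± 0.15, and GID1C was at 0.22 ± 0.08, a call lost with DESeq2 (adjusted p = 0.125) and without any 1 library other than jazD replicate 3. The synthesis gene GA3OX1 fell by 1.07 ± 0.14. Abscisic acid genes were higher in 5 of 17 cases (29.41%) and lower in 7 (41.18%), beside 21.8% and 20.9% of all tested genes. With DESeq2 they were higher and lower in 5 and 4 cases, and without Col-0 replicate 3 in 6 and 4. The synthesis gene NCED3 fell from 8.82 ± 2.4 to 3.35 ± 0.261 CPM and the phosphatase gene HAB1 by 0.98 ± 0.09.

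Flowering genes gave 2 of 10 higher and 4 lower (20% and 40%, beside 21.8% and 20.9% of all tested genes). MAF5, a repressor of flowering, rose from 0.947 ± 0.129 to 4.0 ± 0.486 CPM, the clock gene GI rose by 0.62 ± 0.05, and SPL3 and SPL9, which promote adult growth and flowering, fell by 0.74 ± 0.13 and 0.69 ± 0.1. Cuticle genes were higher in 4 of 10 cases and lower in 5. The wax genes CER4, CER1 and WSD1 fell by 4.71 ± 0.46, 1.48 ± 0.09 and 1.68 ± 0.22. CER4, which makes primary alcohols, was at 3.68, 3.61 and 1.65 CPM in Col-0 and at 0.0545, 0.0983 and 0.178 CPM in jazD. The elongase KCS6 rose by 0.46 ± 0.04.

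Of 120 NB-ARC resistance genes 23 were higher (19.17%) and 24 lower (20%), near the 21.8% and 20.9% of all tested genes. Leucine-rich repeat kinases were higher in 27 of 112 cases (24.11%) and lower in 45 (40.18%). IOS1, a kinase of this class, was at 3.38 ± 1.02 CPM in Col-0 and at 11.82, 23.24 and 10.25 CPM in jazD, with a log2 fold change of 2.17 ± 0.28 and of 1.71 without jazD replicate 2. Of 31 cysteine-rich kinases 11 were higher and 4 lower, but 7 were higher without jazD replicate 2 and 6 with limma on log2(TPM + 1). That alternative also gave 13 higher NB-ARC genes and 15 higher leucine-rich repeat kinases. Of 267 ribosomal protein genes 21 were higher and 49 lower, and the median was -0.03, while limma on log2(TPM + 1) called 108 lower. Among 3900 genes annotated as transposable elements, 148 could be tested, of which 17 were higher (11.49%) and 35 lower (23.65%).

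Some loci were read in 1 genotype and had no count in the other. A count of 0 in every library of a group beside at least 10 counts in every library of the other was found for 13 genes, 6 with counts in jazD and 7 with counts in Col-0. AT5G28810 (chromosome 5, 10823356 to 10826646), with a domain of unknown function, had 534, 599 and 549 counts in jazD and 0 in Col-0, which makes it at least 597-fold higher against a floor of 3 counts over the group. AT5G47260, a nucleotide-binding protein, had 297 counts in all in jazD and 0 in Col-0, at least 105.4-fold higher. AT5G50565 showed the opposite, with no count in jazD beside 171, 155 and 170 in Col-0, a fall of 155.3-fold or more. AT4G12917, annotated as other RNA, summed to 286 counts over the Col-0 libraries and to 0 over those of jazD, which bounds its fall at 89.53-fold or more. In jazDcdk8-1, which shares the JAZ mutations, AT5G28810 and AT4G12917 were as in jazD, with 727 and 0 counts in all. AT5G47260 and AT5G50565 were not, with 1 and 484 counts there, and the cause was not tested.

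The large falls were uneven along the genome. Between 17 and 24 Mb of chromosome 5, 42 of 1279 tested genes (3.284%) were at least 4-fold lower, beside 41 of 17708 elsewhere (0.2315%). At least 4-fold higher were 22 genes there (1.72%) and 284 elsewhere (1.604%). The limits of this stretch were not set independently of these values, so the contrast is a description only. The window from 16 to 17 Mb held 0 genes at least 4-fold lower, and that from 17 to 18 Mb held 9. No mutated JAZ gene lies in that stretch, and within 1 Mb of each mutated JAZ gene 0 to 3 genes were at least 4-fold lower. The stretch holds AT5G45490, at 68.49, 67.69 and 62.07 CPM in Col-0 and at 0, 0 and 0.296 CPM in jazD (log2 fold change -9.42, and -13.36 without jazD replicate 3), and also PDF1.2A, PDF1.2C, AOS, MYC3, MYC5, HCT, NSP5, LHCB3, ERF2, AT5G47260 and AT5G50565 named above. Of 13 iron genes tested 4 were higher and 4 lower (30.77% each, beside 21.8% and 20.9% of all tested genes). The stretch holds the ferric reductase genes FRO6 and FRO7 of this list, which fell by 1.61 ± 0.05 and 0.97 ± 0.05. It also holds the guard cell channel gene KAT1, which fell by 1.25 ± 0.07. In jazDcdk8-1, the mean of 24 of the 42 genes was within 2-fold of Col-0. The part that position plays in these values was not tested.

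Markers were those of leaves in both genotypes. The 6 leaf markers summed to 60260.9 to 63145.0 TPM in Col-0 and to 48514.0 to 52385.2 TPM in jazD, and 3 of the 6 (RBCS3B, CA1 and RCA) were called lower, and all 6 with limma on log2(TPM + 1). Of 9 root markers 4 (CASP5, EXPA7, EXPA18 and COBL9) were at 0, and the sum did not exceed 0.62 TPM in any library. Of 5 seed markers 3 were at 0 and the sum did not exceed 0.22 TPM. Flower markers were low, at 1.69 to 2.46 TPM in Col-0 and 0.59 to 0.63 TPM in jazD. Guard cell markers summed to 89.75 to 92.77 and 68.45 to 75.57 TPM, with KAT1, SCRM2, SPCH and MUTE lower and FAMA higher, where the call of SPCH was lost with DESeq2 (adjusted p = 0.0866). Trichome markers summed to 15.24 to 17.74 and 10.36 to 12.96 TPM, with TRY lower and GL3 higher, where the call of GL3 was lost without jazD replicate 1 (edgeR adjusted p = 0.0574). TRY and SPCH lie in the stretch of chromosome 5 as well. The part of cell make-up in the results above was not tested.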

How the data were processed

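RNA was measured in whole rosettes of 4 genotypes with 3 libraries each. The authors' deposited table of expected counts was made with RSEM 1.2.25 on TAIR10, per the file headers and the submitters' processing notes. The deposited table of TPM names the same RSEM version, per the file headers, and its columns sum to 1000000. The aligner and strand setting are not given in the sources used here. Libraries were prepared with a BGI kit from RNA with an integrity of at least 7.0, per the labels' protocols.

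After rounding of the expected counts, edgeR 4.0.16 in R 4.3.3 scaled libraries by TMM, kept genes with filterByExpr and fitted one quasi-likelihood model to the 12 libraries with a term per genotype. The contrast was jazD minus Col-0, with Benjamini-Hochberg adjustment over 19059 genes and a threshold of 0.05. Standard errors were taken as the size of a log2 fold change over the root of its F statistic, which is approximate, above all for genes with few counts. The model's common dispersion came to 0.002566. Simulated counts were drawn with the model's own dispersions, with 67, 67 and 66 genes changed by 1.5-fold, 2-fold and 4-fold, none of them very low in Col-0. On these the model recovered 76.1%, 98.5% and 100% of the changes in jazD against Col-0 and called 17 unchanged genes among 18750 tested. The real comparison has 8153 called genes and many with few counts, so these rates need not hold for it. Shares of TPM were compared with an exact permutation test. Bounds against a count of 0 cover counting error only.

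Genes were grouped in 32 lists and 35 families by symbol or annotation. These lists and the genes named were chosen with earlier results of these data known, and family patterns were corrected after values were seen. Named genes are all JAZ genes, MYC2, ORA59, PDF1.2A, VSP2, LOX2 and PR1, up to 4 called members per list, the largest changes by fold (apart in and outside 17 to 24 Mb of chromosome 5), in TPM and per family. Further list members were named after their values were seen. Positions and promoter sequences are from RefSeq TAIR10.1, in which 488 gene identifiers were not found. Alternatives were limma 3.58.1 on log2(TPM + 1) and log2(TPM + 0.1), DESeq2 1.42.0, other scalings and filters, the 6 libraries alone, a replicate block, removal of the 20 most abundant genes and each library left out.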

Additional observations from a re-analysis of the deposited data

How the results depend on the processing

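Of 325 tested genes picked by the naming rule, 287 kept their direction and call under every alternative and 0 reversed. Most were picked as called genes with large changes in this same comparison, so this share does not carry over to all called genes. Genes at least 2-fold higher and lower numbered 502 and 206 with limma on log2(TPM + 1), where the added 1 shrinks low genes, against 817 and 435. The count of higher and lower calls ran from 3734 to 3961 and from 3372 to 3582 with one library left out, and was 3570 and 3434 with DESeq2. Without the genes at 17 to 24 Mb of chromosome 5, 758 genes were at least 2-fold higher and 343 lower. The median of the terpene list turned from 0.08 to -0.01 with limma on log2(TPM + 1) and without jazD replicate 1, and ran from -0.01 to 0.38 over the fits with 1 library left out, while that of tubulins turned from -0.04 to 0.01 without jazD replicate 2. The cause was not tested. Deviations of same-numbered libraries of the 2 genotypes had correlations of 0.0267, 0.0454 and 0.0044, beside -0.0662 to 0.0445 for libraries of different number. The labels do not say that the numbers pair libraries, and so few values cannot settle it. With the replicate block as a term 4068 genes were higher and 3866 lower. Among genes with almost no counts in 1 group, fitted folds moved widely when 1 library was left out, from -9.49 to -13.67 for AT5G49440 and from -9.42 to -13.36 for AT5G45490 (both without jazD replicate 3), from 6.25 to 8.9 for MYB113 and from 8.32 to 10.18 for AT2G43580 (both without Col-0 replicate 2), and by less for JAZ13 (4.01 to 4.7 without Col-0 replicate 1) and CYP72A14 (5.42 to 6.09 without Col-0 replicate 2). CPuORF21 went from -4.48 to -0.78 without Col-0 replicate 2 (edgeR adjusted p = 0.792). Counting error and the spread between pools limit genes of a few counts.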

Other observations

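In several defense and stress genes the second jazD library was the highest of the 3. AT4G12490 and EARLI1, lipid transfer proteins, were at 35.61, 68.98 and 28.84 CPM and at 26.3, 47.17 and 22.62 CPM in jazD, against 10.27, 4.22 and 3.35 CPM and 7.73, 5.27 and 3.0 CPM in Col-0. The log2 fold change of AT4G12490 was 2.92 ± 0.43 with all libraries, 2.45 without jazD replicate 2 and 3.57 without Col-0 replicate 1. The glucanase gene BG3 was at 9.15, 19.41 and 6.63 CPM in jazD. PR1, PR5, GSTF7, Prx37, NRT1.8 and IOS1 also had their highest jazD value in library 2, and these genes were picked after their values were seen.

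Outside the lists, AT2G15020 and the CONSTANS-like gene COL2 were among the larger falls of well-expressed genes, from 42.7, 36.93 and 37.23 to 7.79, 7.27 and 7.05 CPM and from 25.84, 25.24 and 22.19 to 6.48, 5.6 and 6.4 CPM. The pectin methylesterase gene PME3 rose from 388.8, 434.3 and 366.8 to 1009.1, 1058.4 and 1025.6 CPM, and the groups did not overlap for any of these 3 genes.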
